A study of Mus musculus with 15 samples.

Results

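The genes described here are 29 genes of the oligodendrocyte lineage, chosen by symbol from the 32657 gene rows of the count tables, and all 29 were found. They fall by role into 2 precursor genes (Pdgfra and Cspg4), 3 genes of committed precursors and newly formed oligodendrocytes (Gpr17, Bcas1 and Enpp6), 5 transcription factors (Sox10, Olig1, Olig2, Myrf and Nkx6-2), 12 myelin and membrane genes (Mbp, Mobp, Mog, Mag, Cnp, Cldn11, Opalin, Ermn, Mal, Ppp1r14a, Tspan2 and Gjc3), 3 genes of myelin lipid and acetate metabolism (Ugt8a, Fa2h and Aspa) and 4 other genes that oligodendrocytes express (Trf, Qdpr, Car2 and Apod). The rule uses the symbols and no measured value, but the symbols were chosen with earlier results of these data known.

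RNA was sequenced from mouse dentate gyrus (DG) in 15 libraries and 6 groups. In the mice labelled wildtype (WT, Drd3-Cre KI198::Rosa26-fsTRAP), Cre drove an EGFP-tagged ribosomal protein (EGFP-L10a) and Htr4, the gene of the serotonin receptor 5-HT4R, was not floxed. The conditional knockout mice (cKO, Drd3-Cre KI198::Rosa26-fsTRAP::Htr4-Floxed) carried the same Cre and EGFP-L10a alleles plus floxed Htr4, so both genotypes shared the driver and the ribosome tag. All mice were adult, 8 to 12 weeks old, and each library was made from pooled animals. The labels give 3 mice for an IP and 2 for an input, whereas the methods describe pools of a male and a female. The Cre driver is a bacterial artificial chromosome transgene described by the study as labelling mature granule cells, hilar mossy cells and some pyramidal cells, and not interneurons or non-neuronal cells. Tagged ribosomes of the ventral DG (vDG) were immunopurified (IP) in 3 WT and 2 cKO libraries, and RNA of the lysate before the IP (input) was sequenced from the vDG in 3 WT and 2 cKO libraries and from the dorsal DG (dDG) in 3 WT and 2 cKO libraries. The comparisons ask how far these genes were removed by the IP, whether they differed between the poles of the DG, and whether they differed between genotypes. For inputs, 1 label field names whole cortex whereas the titles and the region field name the vDG or dDG. Granule cell marker genes were present in every library, at a summed level of 3226 to 5736 counts per 1000000 gene counts (CPM).

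Oligodendrocytes arise from precursors that carry the receptor PDGFRA and the proteoglycan NG2, the product of Cspg4. Precursors that commit to differentiate pass through a short stage with high Gpr17 and Bcas1, and the transcription factor Myrf, acting with Sox10, then switches on the genes of the myelin sheath. The hippocampus holds precursors throughout its layers and myelinated axons in the hilus and along the afferent paths, and none of these cells is a target of the Cre driver as the study describes it.

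Library totals ran from 19039295 to 30451430 gene counts. Htr4 was at 13.6 to 15.9 CPM in WT and 26.9 to 30.2 CPM in cKO IPs, at 13.7 to 18.5 and 27.3 to 29.2 CPM in vDG inputs and at 25.0 to 33.9 and 47.2 to 51.8 CPM in dDG inputs, so that the genotypes did not overlap in any of the 3. A gene count sums all exons while only 1 exon was floxed, and it cannot show the deletion itself. Levels below are CPM scaled over all 15 libraries by the trimmed mean of M-values (TMM). Changes are log2 fold changes ± SE from edgeR's quasi-likelihood test, fitted to each pair of groups with all genes that passed the count filter. FDR is the Benjamini-Hochberg adjusted p over all those genes. A gene was called at an FDR under 0.05, and at an FDR under 0.1 between the IPs of the 2 genotypes. It was called depleted from an IP when it was also under 0.5-fold of the input. Libraries that do not overlap are weak evidence alone. The smallest 2-sided p that a permutation test can give is 0.1 for 3 against 3 libraries and 0.2 for 3 against 2. The share of all genes that separate in this way was not counted.

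**Figure D1:**
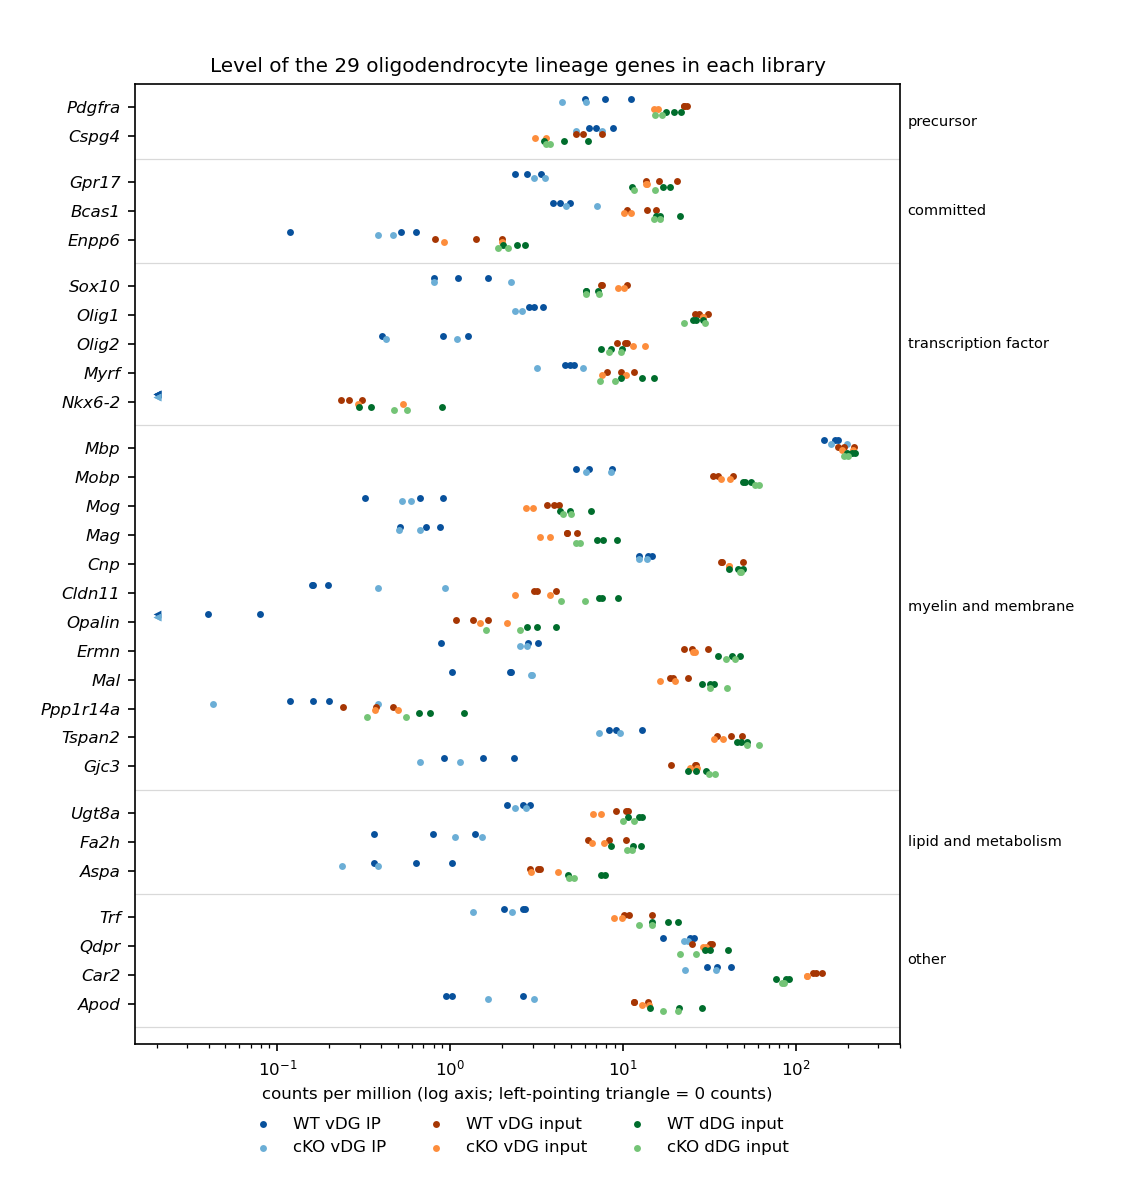
Level of each of the 29 genes in each of the 15 libraries, in CPM on a log axis, with 1 point per library coloured by group and a left-pointing triangle where a library had 0 counts. The IP points of most genes lie to the left of all input points, whereas those of Mbp, Cspg4 and Qdpr lie beside them.

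Promoter windows of RefSeq (build GRCm38.p6, 250 bases before to 50 bases after a transcript start) were found for 20 of the 29 genes, in 23 windows. A window is shown for 4 genes that carry the results below, a precursor gene, a transcription factor and 2 myelin genes that were depleted from the IP and lower in the vDG of WT mice. Capitals mark words searched on both strands, ACAAAG and ACAATG (short words bound by Sox factors) and CANNTG (the E-box read by basic helix-loop-helix factors such as Olig2). Where 2 of the words overlap, their letters run together.
Pdgfra, chr5:75152001-75152300 (+): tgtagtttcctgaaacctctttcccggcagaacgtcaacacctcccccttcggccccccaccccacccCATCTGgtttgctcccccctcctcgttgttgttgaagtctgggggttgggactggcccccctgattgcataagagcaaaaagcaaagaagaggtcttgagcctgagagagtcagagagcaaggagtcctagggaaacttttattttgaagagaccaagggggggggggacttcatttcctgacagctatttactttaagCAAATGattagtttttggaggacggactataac
Olig2, chr16:91225300-91225599 (+): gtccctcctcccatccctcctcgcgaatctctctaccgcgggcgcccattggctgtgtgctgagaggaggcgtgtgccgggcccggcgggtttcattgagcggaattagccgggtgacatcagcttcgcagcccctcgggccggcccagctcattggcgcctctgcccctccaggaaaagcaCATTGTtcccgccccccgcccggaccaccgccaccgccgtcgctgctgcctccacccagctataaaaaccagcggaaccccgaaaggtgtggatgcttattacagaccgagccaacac
Mobp, chr9:120149492-120149791 (+): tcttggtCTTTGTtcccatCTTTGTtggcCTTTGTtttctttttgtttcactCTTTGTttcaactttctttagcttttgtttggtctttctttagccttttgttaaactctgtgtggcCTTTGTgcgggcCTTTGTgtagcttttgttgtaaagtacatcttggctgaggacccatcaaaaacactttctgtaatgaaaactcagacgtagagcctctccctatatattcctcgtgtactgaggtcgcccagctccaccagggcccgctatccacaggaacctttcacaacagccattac
Cldn11, chr3:31149670-31149969 (+): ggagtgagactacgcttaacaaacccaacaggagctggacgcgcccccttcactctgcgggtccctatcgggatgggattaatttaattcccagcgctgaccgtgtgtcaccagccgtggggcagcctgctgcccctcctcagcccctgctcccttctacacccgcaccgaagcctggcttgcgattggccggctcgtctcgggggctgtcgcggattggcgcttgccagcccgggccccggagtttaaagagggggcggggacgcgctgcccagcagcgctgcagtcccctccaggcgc
The Mobp window held ACAAAG 6 times, in each case as its reverse complement, and the Cldn11 window held none of the words. The Pdgfra window held CANNTG at 2 positions and the Olig2 window ACAATG at 1. Among the 23 windows, 30.4% held ACAAAG against 18.7% of all 32851 windows, 17.4% held ACAATG against 12.6%, and 65.2% held CANNTG against 72.3%. These are matches of letters in a short window and not binding sites.

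In the WT vDG, 24 of the 27 tested genes were depleted from the IP. Of all 15011 genes tested, 11.4% were depleted. The median change of the 27 genes was a log2 fold change of -2.51, against 0.00 for all genes. The largest depletions were those of the myelin genes Opalin, Cldn11 and Gjc3. None was called higher, against 7.73% of all genes. The 3 genes that were not called were Cspg4, Mbp and Qdpr. The 2 that were not tested, Nkx6-2 and Ppp1r14a, were too low for the count filter. In the cKO vDG, 22 of 27 tested genes were depleted, against 10.7% of all 15126 genes, with a median of -2.40 that was unchanged with Opalin at the bound given below. All 22 were among the 24 depleted in WT (91.7% of the WT list), and the 2 comparisons used different libraries. Summed over the members other than Mbp, the level was 127 to 148 CPM in WT IPs and 501 to 567 CPM in WT vDG inputs. In bulk tissue, fewer cells of a type and less RNA per cell cannot be told apart.

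The 2 precursor genes differed in how they followed the IP. Pdgfra, the receptor through which platelet-derived growth factor keeps precursors dividing, was at 6.05, 7.90 and 11.1 CPM in the WT IPs and 23.3, 22.6 and 22.6 CPM in the WT vDG inputs. In cKO, Pdgfra was at 6.08 and 4.45 CPM in the IPs and 15.96 and 15.2 CPM in the vDG inputs. Every IP library was below every input library of its genotype, and the change was -1.51 ± 0.20 (FDR = 6.78e-05) in WT and -1.62 ± 0.22 (FDR = 0.000260) in cKO. Cspg4, whose NG2 proteoglycan is carried by precursors and also by pericytes, was at 8.77, 6.32 and 6.96 CPM in the WT IPs and 5.88, 7.59 and 5.36 CPM in the WT vDG inputs. These ranges overlapped, and the change of 0.17 ± 0.21 was not called (FDR = 0.587). In cKO, Cspg4 was at 5.37 and 7.54 CPM in the IPs and 3.60 and 3.10 CPM in the vDG inputs, and it was called higher in the IP (0.90 ± 0.29, FDR = 0.0384), as were 11.8% of all genes. This call was lost by DESeq2, with library size scaling, and on leaving out cKO IP replicate 2 or either cKO vDG input, with FDR between 0.00118 and 0.214 over its 10 alternatives. Leaving out a cKO library leaves 1 in its group, here and in the results that follow, and that library is then assumed to vary like those of the group it is compared with. The 16 pericyte and meningeal markers summed to 20.5 to 46.0 CPM in WT IPs and 105 to 127 CPM in WT vDG inputs, and to 29.5 and 36.8 CPM in cKO IPs and 149 and 179 CPM in cKO vDG inputs, and their part in the Cspg4 values was not tested.

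The 3 genes of committed precursors were depleted in WT, and in cKO only Gpr17 was. Gpr17, a G protein-coupled receptor that must be switched off for differentiation to finish, was at 2.36, 2.76 and 3.36 CPM in WT IPs against 13.6, 20.5 and 16.2 CPM in WT vDG inputs. It was at 3.04 and 3.52 CPM in cKO IPs against 13.7 and 13.6 CPM in cKO vDG inputs. The IPs lay below the inputs in both genotypes, and the WT and cKO changes were -2.62 ± 0.21 (FDR = 6.73e-07) and -2.101 ± 0.23 (FDR = 4.78e-05). Bcas1, which marks oligodendrocytes that are starting to myelinate, was at 4.33, 4.90 and 3.92 CPM in WT IPs and 15.4, 13.8 and 10.5 CPM in WT vDG inputs (-1.65 ± 0.20, FDR = 3.98e-05). In cKO its IPs were at 7.03 and 4.70 CPM and its vDG inputs at 10.2 and 11.1 CPM, and the change of -0.91 ± 0.25 (FDR = 0.0170) was called lower but was not past the 0.5-fold limit. The call was lost without cKO vDG input replicate 1 or replicate 2, with FDR up to 0.111. In cKO, 15.7% of all genes were called lower in the IP at any fold. Enpp6, a choline phosphodiesterase of newly formed oligodendrocytes, had few counts. It was at 0.521, 0.118 and 0.633 CPM in WT IPs, which is 3 to 16 counts, and 1.41, 1.99 and 0.815 CPM in WT vDG inputs, which is 21 to 58 counts. In cKO, Enpp6 was at 0.380 and 0.466 CPM in IPs and 0.919 and 2.01 CPM in vDG inputs. The change was -1.78 ± 0.55 in WT (FDR = 0.0292) and -1.83 ± 0.64 in cKO, where it was not called (FDR = 0.0508). The WT call was lost with the replicate number as a block, without IP replicate 2, without vDG input replicate 1 and without vDG input replicate 2, with FDR up to 0.142.

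All 4 tested transcription factors were depleted in both genotypes, with a median change of -3.06 in WT and -3.17 in cKO. Olig1, a basic helix-loop-helix factor of the whole lineage, was at 2.84, 3.44 and 3.05 CPM in WT IPs and 26.0, 27.7 and 30.9 CPM in WT vDG inputs. Its cKO IPs were at 2.38 and 2.58 CPM and its cKO vDG inputs at 29.1 and 29.2 CPM. It had the lowest FDR of the members in both genotypes (-3.23 ± 0.17, FDR = 9.79e-09 in WT and -3.60 ± 0.19, FDR = 9.55e-08 in cKO). Olig2, its close relative that specifies the lineage, was at 0.401, 0.908 and 1.27 CPM in WT IPs and 10.6, 10.3 and 9.24 CPM in WT vDG inputs. In cKO, Olig2 was at 0.428 and 1.10 CPM in IPs and 13.3 and 11.4 CPM in vDG inputs. Its fitted IP level was 8.29% of the input in WT (-3.59 ± 0.30, FDR = 1.02e-06) and 6.10% in cKO (-4.04 ± 0.36, FDR = 8.41e-06). Sox10, an HMG-box factor kept from the precursor to the mature cell, was at 0.801, 1.66 and 1.11 CPM in WT IPs and 7.51, 10.5 and 7.49 CPM in WT vDG inputs. In cKO, Sox10 was at 2.23 and 0.805 CPM in IPs and 9.30 and 10.1 CPM in vDG inputs. No IP library reached an input library, and the change was -2.89 ± 0.28 in WT (FDR = 4.46e-06) and -2.74 ± 0.38 in cKO (FDR = 0.000295).

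Myrf, the factor that drives myelin genes, was depleted least of these factors. It was at 4.61, 4.90 and 5.18 CPM in WT IPs and 9.78, 11.6 and 8.04 CPM in WT vDG inputs, and at 3.18 and 5.85 CPM in cKO IPs and 7.502 and 10.4 CPM in cKO vDG inputs. The change was -1.06 ± 0.20 in WT (FDR = 0.00127) and -1.03 ± 0.31 in cKO (FDR = 0.0266), close to the 0.5-fold limit in both. Without WT vDG input replicate 2, the WT change was -0.92 and no longer past that limit. The cKO depletion was lost with all 15 libraries in one fit and without cKO IP replicate 1 or cKO vDG input replicate 2, with FDR up to 0.237. Nkx6-2, a homeobox factor of maturing oligodendrocytes, had 0 counts in all 5 IP libraries and 22 counts in the WT and 22 in the cKO vDG inputs. Taking 3 counts per library as the limit that a count of 0 allows, it was at least 2.25-fold lower in the WT IP and at least 3.07-fold lower in the cKO IP. Such limits cover counting error only, because the reads carried no molecular identifiers.

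Of the 15 myelin, lipid and acetate genes, 14 were tested and 13 were depleted in each genotype, with a median change of -2.77 in WT and -2.5003 in cKO. Cldn11, the claudin of the tight junctions between myelin layers, was at 0.160, 0.197 and 0.158 CPM in WT IPs, which is 4 or 5 counts, and 3.05, 3.19 and 4.08 CPM in WT vDG inputs. The change was -4.34 ± 0.40 (FDR = 2.19e-06). In cKO, Cldn11 was at 0.380 and 0.932 CPM in the IPs, both above the WT IPs, and at 2.37 and 3.79 CPM in the vDG inputs (-2.26 ± 0.52, FDR = 0.00720), a call that was lost without cKO vDG input replicate 2, with FDR up to 0.168. Opalin, a sialylated protein of the mature sheath, had 3 counts over the 3 WT IPs and 112 over the 3 WT vDG inputs, a ratio of 0.02898 after scaling for library size with a 95% counting interval of 0.00589 to 0.0869 (-4.99 ± 0.68, FDR = 0.000106). It had 0 counts in both cKO IPs against 97 in the cKO vDG inputs, and was at least 13.5-fold lower there. Gjc3, a connexin of myelinating glia, was at 0.921, 1.54 and 2.33 CPM in WT IPs and 26.3, 26.2 and 19.03 CPM in WT vDG inputs. In cKO, Gjc3 was at 0.665 and 1.14 CPM in IPs and 26.6 and 24.5 CPM in vDG inputs. The IP held 6.47% of the input level in WT (-3.95 ± 0.27, FDR = 1.28e-07) and 3.47% in cKO (-4.85 ± 0.26, FDR = 9.73e-08).

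Mobp, Mog and Mag were depleted in both genotypes. Mobp, a small basic protein of compact myelin, was at 5.37, 8.57 and 6.33 CPM in WT IPs and 35.4, 43.2 and 33.0 CPM in WT vDG inputs. In cKO, Mobp was at 6.08 and 8.51 CPM in IPs and 36.7 and 41.6 CPM in vDG inputs. The IPs were below the inputs throughout, and the WT and cKO changes were -2.51 ± 0.19 (FDR = 3.48e-07) and -2.47 ± 0.18 (FDR = 1.56e-06). Mog, an adhesion protein of the outer myelin surface, was at 0.321, 0.671 and 0.910 CPM in WT IPs and 3.98, 4.26 and 3.61 CPM in WT vDG inputs, and at 0.523 and 0.593 CPM in cKO IPs and 3.02 and 2.73 CPM in cKO vDG inputs. Its change was -2.69 ± 0.35 in WT (FDR = 7.66e-05) and -2.40 ± 0.47 in cKO (FDR = 0.00289), where the call was lost without cKO vDG input replicate 1 (FDR = 0.0671), while the change stayed between -2.57 and -2.28 over its 10 alternatives. Mag, which faces the axon at the innermost layer, was at 0.721, 0.869 and 0.514 CPM in WT IPs and 4.72, 4.74 and 5.40 CPM in WT vDG inputs. In cKO, Mag was at 0.665 and 0.508 CPM in IPs and 3.79 and 3.32 CPM in vDG inputs. The IPs again lay below all inputs, and the change was -2.86 ± 0.30 in WT (FDR = 7.46e-06) and -2.64 ± 0.44 in cKO (FDR = 0.00106). The other depleted genes of this group (Cnp, Ermn, Mal, Tspan2, Ugt8a, Fa2h and Aspa) changed by -1.64 for Cnp to -3.56 for Ermn in WT and by -1.51 for Ugt8a to -3.55 for Aspa in cKO. Ppp1r14a, an inhibitor of myosin phosphatase, had 3 to 5 counts in the WT IPs and 7 to 12 in the WT vDG inputs and was not tested.

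Mbp, the protein that holds the cytoplasmic faces of myelin together, was the 1 tested myelin gene that was not depleted in either genotype. It was at 145, 176 and 167 CPM in the WT IPs and 176, 217 and 191 CPM in the WT vDG inputs. It was at 197 and 161 CPM in the cKO IPs and 185 and 215 CPM in the cKO vDG inputs. The WT IPs were just below the inputs and the cKO libraries overlapped, with changes of -0.31 ± 0.12 (FDR = 0.0855) and -0.21 ± 0.12 (FDR = 0.217) that were not called. Their 95% intervals from the quasi-likelihood test, before adjustment, were -0.58 to -0.04 in WT and -0.47 to 0.05 in cKO and did not reach the -1 of the depletion limit. GENCODE M21 (GRCm38, the mm10 assembly) lists 16 transcripts of Mbp, of which 4 start near the beginning of the gene and 12 start at least 79324 bases downstream. As background, the upstream starts give the golli transcripts, which neurons also make. A gene count cannot separate the 2 sets, and their share was not tested. On a per-kilobase scale, Mbp was the second highest member in the WT vDG inputs (23.0 CPM per kb of exon), after Car2 (54.6), and it was the highest in the WT IPs (19.2), before Car2 (14.8) and Qdpr (12.6).

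**Figure D2:**
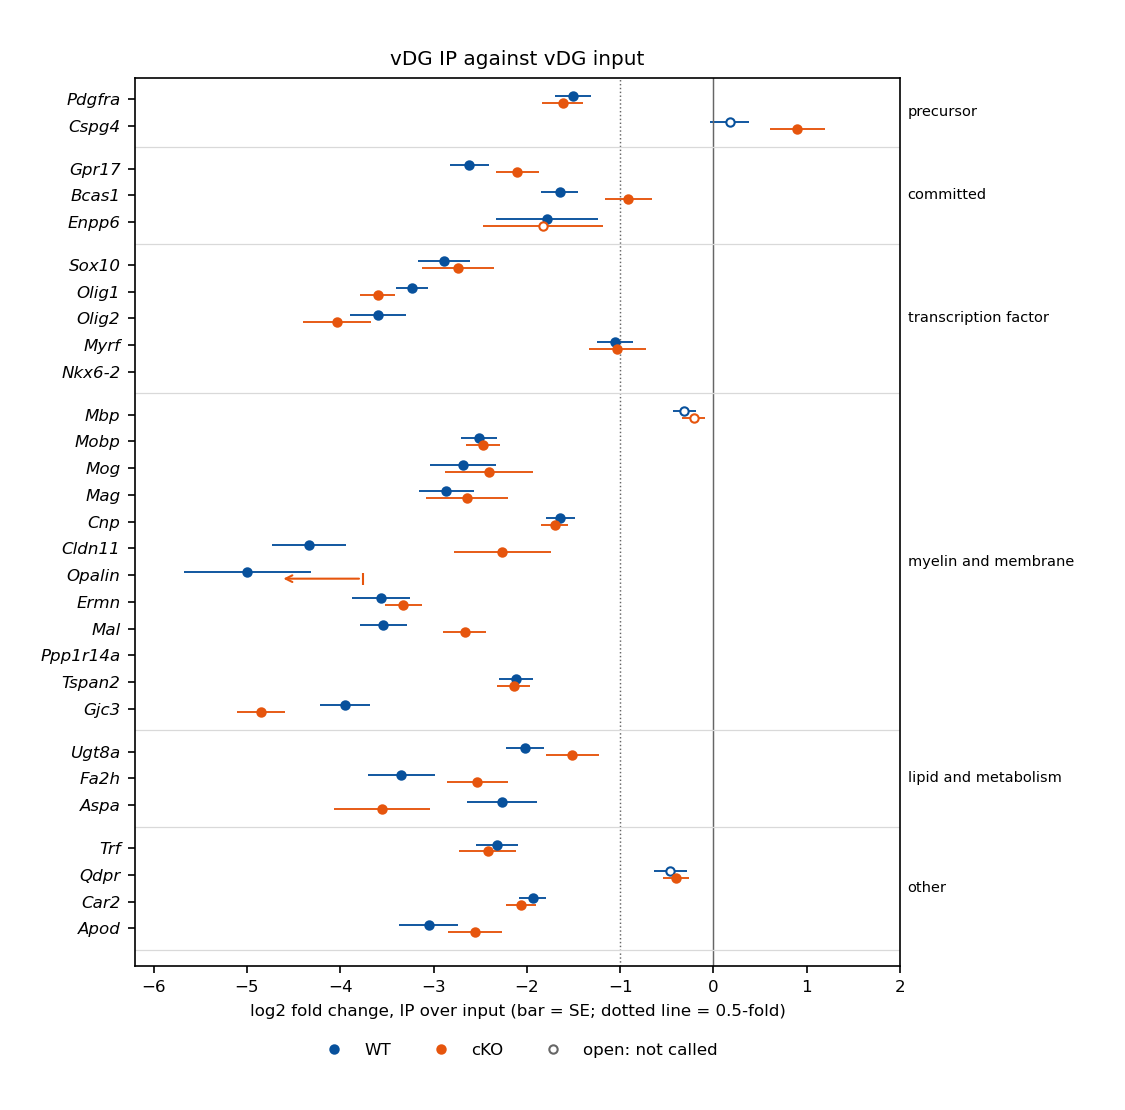
Log2 fold change of vDG IP over vDG input for each tested gene, in WT and cKO, with the SE as a bar, filled points for genes called and open points for genes not called. The bar with an arrow for Opalin in cKO is the limit that 0 counts allow, at least 13.5-fold lower, and the points of Cspg4, Mbp and Qdpr lie between -0.46 and 0.90 whereas nearly all others lie past the dotted 0.5-fold line.

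Among the 4 other genes, Car2, Trf and Apod were depleted in both genotypes and Qdpr was not. Car2, a carbonic anhydrase, was at 30.6, 42.2 and 34.8 CPM in WT IPs and 141, 131 and 125 CPM in WT vDG inputs (-1.94 ± 0.14, FDR = 2.50e-07). In cKO, Car2 was at 34.4 and 23.0 CPM in IPs and 116 and 115 CPM in vDG inputs (-2.07 ± 0.16, FDR = 2.50e-06). Trf, the iron carrier transferrin, changed by -2.32 ± 0.22 in WT and -2.42 ± 0.31 in cKO, and 63.5% of its exon bases in GENCODE are shared with a same-strand gene, so its counts are uncertain. Apod, a lipid carrier, changed by -3.05 ± 0.32 in WT and -2.56 ± 0.29 in cKO. Qdpr, an enzyme that regenerates a cofactor of neurotransmitter synthesis and is not particular to oligodendrocytes, changed by -0.46 ± 0.18 in WT (FDR = 0.0739) and -0.40 ± 0.14 in cKO (FDR = 0.0469). The cKO value was called lower, and that call was lost in 8 of 10 alternatives, including DESeq2 and leaving out any 1 library.

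In the wider lineage lists the precursor genes were depleted most, unlike among the members. There the precursor genes had a WT median of -0.67 and the myelin and membrane genes one of -2.86. Some genes of the wider committed-stage and myelin lists were high in the WT IPs themselves, such as Nfasc (mean of 132 CPM), Fyn (119) and Efnb3 (97.7). The part of such genes in the list medians was not tested. Of 15 further precursor genes, 12 were depleted in the WT IP, with a median of -2.39, led by the homeobox factor Nkx2-2 (-4.50 ± 0.54, FDR = 3.19e-05) and the receptor Gpr37l1 (-3.44 ± 0.23, FDR = 9.39e-08), which astrocytes also express. Of 14 tested further genes of the committed stage, 4 were depleted and 3 more were called lower, with a median of -0.45. Of the called genes averaging 1 CPM or more, the Wnt pathway factor Tcf7l2 (-2.87 ± 0.20, FDR = 1.98e-07) and the focal adhesion gene Tns3 (-0.82 ± 0.13, FDR = 0.000508) fell most. Of 27 tested further myelin genes, 11 were depleted, with a median of -0.94, Tmem88b among them (-3.11 ± 0.21, FDR = 1.45e-07). In cKO, 10 of 14 tested precursor, 2 of 14 committed-stage and 9 of 25 myelin genes of these lists were depleted, where the shares over all genes were 11.4% in WT and 10.7% in cKO, and the committed-stage count in cKO was near that share. As a measure of what else the IP removed, 11 of 12 astrocyte, 12 of 12 microglia and 9 of 10 interneuron markers were depleted in WT. Depleted too were 5 of 14 tested pericyte and meningeal and 1 of 4 tested choroid plexus markers, with medians of -1.03 and -0.10. Of 10 tested endothelial markers edgeR called 0 lower, with 0 at an unadjusted p under 0.05 and a median of 0.08. Of the granule cell genes, 5 of 13 were called higher and none lower. In cKO, 11 of 12 astrocyte, 9 of 11 tested microglia and 8 of 10 interneuron markers were depleted. So were 7 of 15 tested pericyte and meningeal and 1 of 3 tested choroid plexus markers, with medians of -1.35 and -1.19. Endothelial markers had 0 of 10 called by edgeR in cKO, 1 at an unadjusted p under 0.05 and a median of -0.17. Granule cell genes had 10 of 13 called higher in cKO and none lower. Library size scaling in place of TMM moved the median change of all genes to -0.13 in WT and -0.20 in cKO, and the calls over all genes from 1160 higher and 2422 lower to 487 and 3022 in WT, and from 1790 and 2377 to 751 and 3230 in cKO. The median of the members then was -2.64 in WT and -2.57 in cKO.

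The effect of genotype on the IP-to-input change was tested as an interaction over the 4 vDG groups. By edgeR, 0 of 28 tested members differed at an FDR under 0.05, as did 0% of all 16093 genes, of which 497 had an unadjusted p under 0.05, and DESeq2 also called 0 members. At an unadjusted p under 0.05 there were 4 members, Cldn11, Mal, Bcas1 and Cspg4. For these 4 the interaction was positive, that is, the IP-to-input ratio was higher in cKO, by 2.10 ± 0.66 for Cldn11 and 0.75 ± 0.34 for Cspg4. All had an edgeR FDR of 0.99998.

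Between the poles of the DG, all members called except Car2 were lower in the vDG. The 12 myelin and membrane genes are the largest group of the 29. Of them, 50% were called in WT and 33.3% in cKO, against 35.7% and 34.5% of all tested members in either direction. In WT inputs, 9 of 28 tested members were lower in the vDG than in the dDG, against 6.09% of all 15412 genes, and 1, Car2, was higher, against 9.26%. The 9 were 6 myelin genes (Opalin, Cldn11, Mag, Ermn, Mal and Mobp), Aspa, Trf and Apod. In cKO inputs, 9 of 29 were lower, against 8.47% of all 15505 genes, and Car2 was again higher, against 8.56%. These 9 were Mal, Ermn, Tspan2 and Mobp of the myelin genes, the lipid genes Ugt8a and Fa2h, and Bcas1, Trf and Apod. The 2 lists shared 5 genes, Mobp, Ermn, Mal, Trf and Apod, which is 55.6% of each, and used different libraries. All 15 myelin, lipid and acetate genes had a negative change in WT (median -0.45) and 14 of 15 in cKO (median -0.60), where all genes had medians of -0.01 and 0.01. With library size scaling these counts were 15 and 13, and the calls over all genes in cKO moved from 1328 higher and 1314 lower to 1778 and 943. No precursor gene and no transcription factor was called in either genotype, although Sox10 and Olig2 were called higher in the cKO vDG with library size scaling and with the replicate number as a block, and Olig2 also without cKO vDG input replicate 2.

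The values of the precursor genes and transcription factors at the 2 poles were as follows. In the dDG inputs, Pdgfra was at 19.8, 21.7 and 17.6 CPM in WT and 15.3 and 16.7 CPM in cKO, and the vDG minus dDG change was 0.24 ± 0.13 in WT (FDR = 0.273) and -0.03 ± 0.16 in cKO (FDR = 0.921). Cspg4 was at 6.25, 4.54 and 3.47 CPM in WT and 3.60 and 3.76 CPM in cKO dDG inputs, with changes of 0.43 ± 0.23 and -0.13 ± 0.27. Both precursor genes thus had positive fitted values in WT and negative ones in cKO, none of them called. Olig1 was at 25.5, 26.3 and 28.9 CPM in WT and 29.7 and 22.6 CPM in cKO dDG inputs (0.09 ± 0.13 and 0.16 ± 0.14). Olig2 was at 9.89, 7.48 and 8.53 CPM in WT and 9.73 and 8.28 CPM in cKO (0.24 ± 0.17 and 0.47 ± 0.18). Sox10 was at 6.07, 6.14 and 7.17 CPM in WT and 6.09 and 7.29 CPM in cKO (0.42 ± 0.19, FDR = 0.161 and 0.54 ± 0.20, FDR = 0.0612). For Sox10 all vDG libraries were above all dDG libraries in each genotype, although neither change was called. Myrf was at 12.9, 9.78 and 15.1 CPM in WT and 7.31 and 8.99 CPM in cKO dDG inputs (-0.34 ± 0.19 and 0.14 ± 0.21), and Nkx6-2 had 7 to 20 counts in each dDG library.

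Of the committed genes, Bcas1 was called in 1 genotype. It was at 21.4, 16.4 and 15.4 CPM in WT and 15.2 and 16.3 CPM in cKO dDG inputs. The change was -0.40 ± 0.17 in WT (FDR = 0.150), where libraries overlapped, and -0.56 ± 0.17 in cKO (FDR = 0.0260), where they did not. The cKO call was lost with library size scaling, with all 15 libraries in one fit, and without cKO vDG input replicate 1, cKO dDG input replicate 1 or cKO dDG input replicate 2, with FDR up to 0.192. Gpr17 was at 11.2, 18.7 and 17.0 CPM in WT and 11.6 and 15.3 CPM in cKO dDG inputs (0.12 ± 0.19 and 0.03 ± 0.18). Enpp6 was at 2.43, 2.69 and 2.02 CPM in WT and 1.90 and 2.16 CPM in cKO (-0.72 ± 0.35 and -0.46 ± 0.40). Neither was called.

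The myelin genes with the largest regional difference in WT were Opalin and Cldn11. Opalin was at 1.08, 1.65 and 1.36 CPM in the WT vDG inputs and 4.09, 3.19 and 2.78 CPM in the WT dDG inputs (-1.27 ± 0.30, FDR = 0.00752). In cKO, Opalin was at 2.14 and 1.49 CPM in vDG and 2.53 and 1.60 CPM in dDG inputs, which overlapped (-0.18 ± 0.37, FDR = 0.783). Cldn11 was at 7.55, 9.38 and 7.27 CPM in WT and 6.01 and 4.38 CPM in cKO dDG inputs, above the vDG inputs in each genotype. Its change was -1.20 ± 0.20 in WT (FDR = 0.000539) and -0.74 ± 0.28 in cKO, where it was not called (FDR = 0.0702). Aspa, which splits N-acetylaspartate to supply acetate, was at 3.20, 3.30 and 2.91 CPM in WT vDG and 7.42, 7.88 and 4.82 CPM in WT dDG inputs (-1.06 ± 0.23, FDR = 0.00352). In cKO, Aspa was at 2.95 and 4.23 CPM in vDG and 5.18 and 4.89 CPM in dDG inputs and was not called (-0.48 ± 0.25, FDR = 0.216). A gene called in 1 genotype and not in the other is not shown to differ between them, and the interaction is given below.

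Mal, Ermn and Mobp were lower in the vDG of both genotypes. Mal, a raft-associated membrane protein of the sheath, was at 18.6, 23.7 and 19.3 CPM in WT vDG and 28.5, 31.8 and 33.6 CPM in WT dDG inputs (-0.59 ± 0.14, FDR = 0.00697). In cKO, Mal was at 16.3 and 20.02 CPM in vDG and 31.9 and 40.0 CPM in dDG inputs (-0.98 ± 0.15, FDR = 0.000112). The libraries of the 2 poles did not overlap in either genotype. Ermn, a cytoskeletal protein of late oligodendrocytes, was at 24.9, 31.0 and 22.6 CPM in WT vDG and 42.5, 35.6 and 47.6 CPM in WT dDG inputs (-0.66 ± 0.15, FDR = 0.00513). In cKO, Ermn was at 26.1 and 25.4 CPM in vDG and 44.6 and 39.6 CPM in dDG inputs (-0.70 ± 0.13, FDR = 0.000670), a call lost when all 15 libraries were fitted together (FDR = 0.104). The Mobp dDG inputs were at 49.3, 54.8 and 51.0 CPM in WT and 58.1 and 61.5 CPM in cKO, all above the vDG inputs of the same genotype. Its change was -0.45 ± 0.13 in WT (FDR = 0.0231) and -0.60 ± 0.12 in cKO (FDR = 0.00181). The WT calls of Mobp and Mag were lost without WT dDG input replicate 2 or WT vDG input replicate 1, and that of Mobp also without vDG input replicate 3 and that of Mag without vDG input replicate 2, with FDR up to 0.121 and 0.124.

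Tspan2, Ugt8a and Fa2h were called in cKO and Mag in WT. Tspan2, a tetraspanin of the lineage, was at 38.0 and 33.6 CPM in cKO vDG and 51.8 and 61.3 CPM in cKO dDG inputs (-0.65 ± 0.13, FDR = 0.00133). In WT it was at 35.1, 48.6 and 42.4 CPM in vDG and 45.4, 52.2 and 47.8 CPM in dDG inputs, which overlapped (-0.18 ± 0.13, FDR = 0.407). Mag was at 7.06, 9.18 and 7.67 CPM in WT and 5.61 and 5.36 CPM in cKO dDG inputs (-0.66 ± 0.19, FDR = 0.0224 and -0.62 ± 0.24, FDR = 0.0810). Mog was at 4.94, 6.54 and 4.30 CPM in WT and 4.51 and 4.99 CPM in cKO dDG inputs, and its changes of -0.38 ± 0.22 and -0.71 ± 0.26 were not called. Ugt8a, the galactosyltransferase of myelin glycolipids, and Fa2h, which hydroxylates their fatty acids, were called in cKO (-0.60 ± 0.19 and -0.59 ± 0.19) and not in WT (-0.23 ± 0.16 and -0.36 ± 0.20). Both cKO calls were lost by DESeq2 and in 5 other alternatives, among them leaving out cKO vDG input replicate 1, cKO dDG input replicate 1 or cKO dDG input replicate 2, with FDR up to 0.233 for Ugt8a and 0.268 for Fa2h. Gjc3 was at 30.0, 26.5 and 23.7 CPM in WT and 34.0 and 31.4 CPM in cKO dDG inputs, and Cnp, the cyclic nucleotide phosphodiesterase of noncompact myelin, and Ppp1r14a likewise were not called. Mbp was at 199, 211 and 219 CPM in WT and 199 and 189 CPM in cKO dDG inputs, which overlapped the vDG inputs (-0.09 ± 0.11 and 0.05 ± 0.11).

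Among the 4 other genes, Car2 was the sole member higher in the vDG. It was at 76.4, 87.5 and 91.3 CPM in WT dDG inputs, all below the WT vDG inputs (0.66 ± 0.11, FDR = 0.000572). In cKO dDG inputs it was at 85.5 and 82.8 CPM (0.47 ± 0.11, FDR = 0.00546), a call lost when all 15 libraries were fitted together (FDR = 0.0951). Trf (-0.56 ± 0.18 in WT and -0.53 ± 0.18 in cKO) and Apod (-0.76 ± 0.20 and -0.48 ± 0.16) were called lower in both genotypes. In WT, the Trf call was lost with library size scaling and without any 1 of vDG input replicates 2 and 3 and dDG input replicates 1 and 2, and the Apod call without vDG input replicate 3 or dDG input replicate 2, with FDR up to 0.176 and 0.127. In cKO, both were lost by DESeq2, with library size scaling, with all 15 libraries in one fit and without cKO vDG input replicate 2, Trf also without cKO dDG input replicate 2 and Apod without cKO dDG input replicate 1, with FDR up to 0.395 and 0.414. Qdpr (-0.16 ± 0.15 and 0.31 ± 0.14) was not called.

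**Figure D3:**
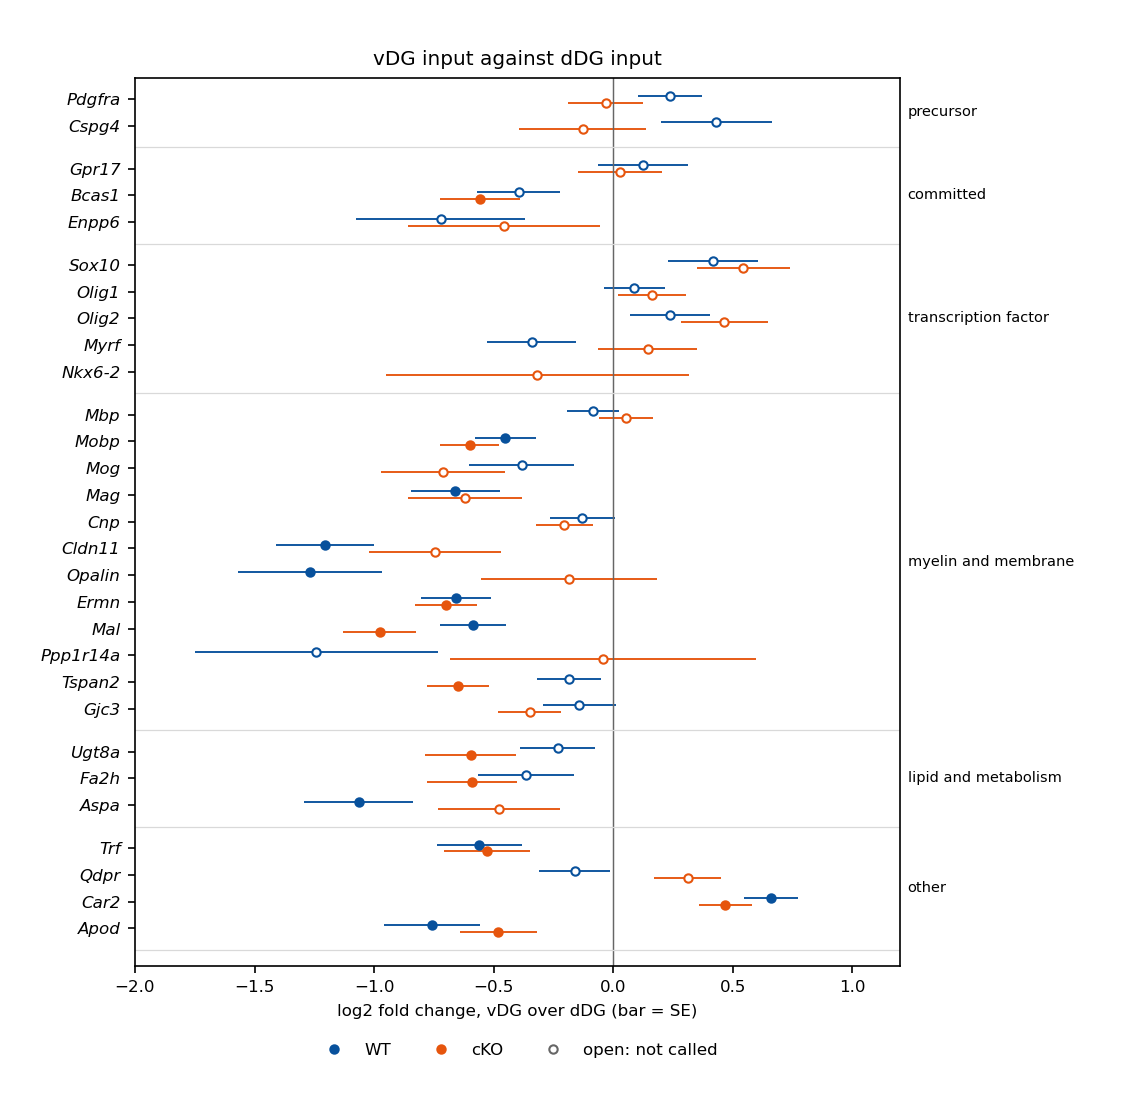
Log2 fold change of vDG input over dDG input for each tested gene in WT and cKO, with the SE as a bar, filled points for genes called and open points for genes not called. The points of the 15 myelin, lipid and acetate genes lie at or left of 0 except Mbp in cKO, at 0.05, whereas those of the precursor genes and transcription factors lie on both sides.

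Genes of the wider lists were mixed between the poles, and several counts were near the shares over all genes given above (6.09% lower and 9.26% higher in WT, 8.47% and 8.56% in cKO). Of 29 tested further myelin genes, 4 were lower and 2 higher in WT, the higher ones being the cytokine gene Il33 (1.12 ± 0.13, FDR = 1.05e-05) and the actin-binding Anln (0.84 ± 0.16, FDR = 0.00163). In cKO, 3 were lower, led by the protease Adamts4 (-1.74 ± 0.48, FDR = 0.0156), and 3 were higher. Of 15 further precursor genes, 1 was higher in WT, Sox6 (0.57 ± 0.14, FDR = 0.00804), and 2 were lower in cKO, the matrix genes Vcan (-0.55 ± 0.19, FDR = 0.0481) and Tnr (-0.54 ± 0.12, FDR = 0.00301). Of 14 tested committed-stage genes, 2 were lower and 1 higher in WT, and 5 were lower and 1 higher in cKO, the higher one being Tns3 in both, while the uncharacterised 9630013A20Rik was lower in both (-1.09 ± 0.29, FDR = 0.0172 and -0.96 ± 0.31, FDR = 0.0372 in WT and cKO). Tns3 had 0.83 ± 0.14, FDR = 0.000515 in WT and 0.77 ± 0.13, FDR = 0.000226 in cKO.

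Markers of other tissues also differed between the poles. The 10 choroid plexus markers summed to 25.2 to 31.7 CPM in WT vDG inputs and 40.2, 105 and 163 CPM in WT dDG inputs, with 3 of 6 tested called lower in the vDG. In cKO the sums overlapped, 25.6 and 38.2 CPM in vDG against 29.5 and 23.8 CPM in dDG inputs, with 1 of 3 tested called higher and 1 lower. In the IPs a single gene of this list, Kl, made up most of the sum. Its mean was 23.0 of 26.4 CPM in WT and 21.9 of 23.7 CPM in cKO IPs. Low sums of this list are thus a weak measure of choroid plexus. Pericyte and meningeal markers summed to 105 to 127 CPM in WT vDG and 128 to 305 CPM in WT dDG inputs, with 1 of 16 called lower, and in cKO, where the sums overlapped, 1 of 16 was called higher. Endothelial markers were at overlapping sums in WT, with 0 of 11 called by edgeR, 9 negative, 3 at an unadjusted p under 0.05 and a median of -0.72, and 7 of 10 were negative in cKO with a median of -0.33. Microglia markers were negative in 9 of 12 in WT (median -0.31) and in 10 of 11 in cKO (median -0.26), with 0 called by edgeR in both and 0 and 1 at an unadjusted p under 0.05. Astrocyte markers overlapped between the WT poles, with 2 of 12 called higher and 1 lower in the vDG, and were at 2948 and 3199 CPM in cKO vDG against 3595 and 5140 CPM in cKO dDG inputs, with 3 of 12 called lower and 1 higher. CA pyramidal markers summed to 647 to 740 CPM in WT vDG and 401 to 497 CPM in WT dDG inputs, with 6 of 10 called higher and 3 lower. In cKO, CA markers were at 520 and 538 CPM in vDG and 421 and 530 CPM in dDG inputs, which overlapped, with 6 of 10 called higher and 2 lower. Granule cell markers summed to 3226 to 3633 CPM in WT vDG and 5194 to 5736 CPM in WT dDG inputs. Of them, 8 of 13 were called lower in the vDG and 2 higher. This list includes Lct and Trhr, which the study used as markers of the dDG and the vDG. Its difference between the poles is thus partly set by the choice of genes, and it cannot separate position from the amount of granule cells. In cKO, granule cell markers were at 3678 and 3717 CPM in vDG against 4940.0 and 5293 CPM in dDG inputs, with 9 of 13 called lower and 1 higher. Interneuron markers were higher in the vDG, at 461 to 536 CPM against 310 to 381 CPM in WT, with 4 of 10 called higher, and at 392 and 403 CPM against 332 and 355 CPM in cKO, with 3 of 10 called higher. The part of these differences in the member values was not tested, nor was that of the dissection. The number of WT members called was 6 without WT dDG input replicate 2 and 7 to 10 without any 1 other library. In cKO, 6 were called by DESeq2, 6 without cKO dDG input replicate 1 and 3 (Mal, Mobp and Tspan2) when all 15 libraries were fitted together.

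The effect of genotype on the vDG-to-dDG change was tested over the 4 input groups. By edgeR, 0 of 29 members differed at an FDR under 0.05, as did 0% of all 16306 genes, of which 2010 had an unadjusted p under 0.05, and DESeq2 also called 0 members. At an unadjusted p under 0.05 there were 3 members, Tspan2, Opalin and Qdpr, with edgeR FDR of at least 0.35022. The interaction was -0.47 ± 0.20 for Tspan2 and 1.08 ± 0.47 for Opalin.

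Between genotypes, 1 gene was called in 1 of the 3 comparisons. In the vDG inputs, 1 of 28 tested members (3.57%), Cspg4, was lower in cKO. That share is near the 2.33% of all 15786 genes called lower. None was higher, against 0.108%. In the vDG IPs, 0 of 25 tested members were called lower, against 0.35% of all 14300 genes, or higher, against 0.0699%. In the dDG inputs, 0 of 29 were called lower, against 0.026% of all 15383 genes, or higher, against 0.0065%. The median change of the members was -0.08, -0.05 and -0.15 in the 3 comparisons, where all genes had 0.01, 0.00 and -0.02.

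In the vDG inputs the lowest FDRs were those of the 2 precursor genes. With the values given above, Cspg4 had 138 to 221 counts in the WT and 94 and 85 counts in the cKO vDG inputs, and all cKO libraries were below all WT libraries (-0.91 ± 0.24, FDR = 0.0394). Pdgfra likewise did not overlap between genotypes, which alone is weak evidence with 2 libraries in cKO. Its change of -0.56 ± 0.16 missed the threshold (FDR = 0.0581). DESeq2 called both genes. The Cspg4 call was lost with library size scaling, with all 15 libraries in one fit, and without WT vDG input replicate 2, WT vDG input replicate 3 or either cKO vDG input, with FDR from 0.0115 to 0.300 over 11 alternatives. In the dDG inputs the same genes changed by -0.37 ± 0.27 (FDR = 0.643) and -0.30 ± 0.15 (FDR = 0.435). In the IPs they changed by -0.17 ± 0.25 (FDR = 0.830) and -0.65 ± 0.28 (FDR = 0.396). Summed, the 2 genes were at 28.0 to 30.2 CPM in WT and 18.3 to 19.6 CPM in cKO vDG inputs.

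The transcription factors, some of which precursors also express, were not called lower in the cKO vDG. Their sum was 54.1 to 60.4 CPM in WT and 59.7 to 61.3 CPM in cKO vDG inputs. The change was 0.30 ± 0.18 for Olig2, 0.18 ± 0.20 for Sox10 and 0.04 ± 0.15 for Olig1, none called. Of 15 further precursor genes, 0 were called by edgeR in the vDG inputs and 3 had an unadjusted p under 0.05, with a median change of -0.26 for the list. The committed-stage gene Itpr2 (-0.66 ± 0.18, FDR = 0.0494) and the myelin-list gene Cntn2 (-0.82 ± 0.19, FDR = 0.0240) were the wider genes called, both lower in cKO and both also made by neurons or other cells. The 12 astrocyte markers summed to 4919 to 5602 CPM in WT and 2948 to 3199 CPM in cKO vDG inputs, with 5 of 12 called lower. Pericyte and meningeal markers summed to 105 to 127 CPM in WT and 149 to 179 CPM in cKO vDG inputs, with 2 of 16 called higher. CA pyramidal markers were at 647 to 740 CPM in WT and 520 to 538 CPM in cKO vDG inputs, with 2 of 10 called lower. Interneuron markers were at 461 to 536 CPM in WT and 392 to 403 CPM in cKO vDG inputs, with 0 of 10 called by edgeR and 5 of 10 at an unadjusted p under 0.05. All 12 microglia markers had a negative change (median -0.61, 0 called by edgeR and 2 at an unadjusted p under 0.05), with overlapping sums of 41.2 to 68.3 CPM in WT and 30.8 to 42.4 CPM in cKO vDG inputs. Granule cell markers summed to 3226 to 3633 CPM in WT and 3678 to 3717 CPM in cKO vDG inputs, although 1 of 13 was called lower. Choroid plexus sums overlapped, at 25.2 to 31.7 CPM in WT and 25.6 to 38.2 CPM in cKO vDG inputs, with 1 of 6 tested called higher. The part of these shifts in the Cspg4 and Pdgfra values was not tested.

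No myelin gene was called between genotypes. In the vDG inputs the 15 myelin, lipid and acetate genes had a median change of -0.03, with values from -0.50 for Ugt8a to 0.41 for Opalin. Among them 1, of the lipid and acetate genes, had an unadjusted p under 0.05, and the lowest edgeR FDR of the 15 was 0.189. The 95% interval was -0.23 to 0.30 for Mbp, -0.97 to 0.004 for Mag and -0.74 to 0.43 for Cldn11. In the dDG inputs, 5 of 29 members had an unadjusted p under 0.05, and each was lower in cKO. They were Qdpr (-0.51 ± 0.16, FDR = 0.210), Myrf (-0.64 ± 0.20, FDR = 0.214), Cldn11 (-0.63 ± 0.21, FDR = 0.246), Mag (-0.54 ± 0.20, FDR = 0.291) and Trf (-0.40 ± 0.18, FDR = 0.381). Choroid plexus and microglia markers also had lower sums in the cKO dDG inputs, with 0 called by edgeR. All 7 tested choroid plexus markers had a negative change (median -2.61, 6 at an unadjusted p under 0.05), with sums of 40.2 to 163 CPM in WT and 23.8 to 29.5 CPM in cKO. All 12 microglia markers likewise had a negative change (median -0.53, 6 at an unadjusted p under 0.05), with sums of 49.4 to 87.5 CPM in WT and 43.2 to 44.5 CPM in cKO. Their part in the member values was not tested. Of the 5 members only Myrf and Qdpr were called under any alternative, when the count filter was left out. In the IPs, Pdgfra was the 1 member with an unadjusted p under 0.05 by edgeR, and DESeq2 called 0 members in the IPs and in the dDG inputs. Astrocyte markers summed to 1439 to 2044 CPM in WT and 1240 to 1247 CPM in cKO IPs, with 10 of 12 negative (median -0.48), 0 called by edgeR and 4 at an unadjusted p under 0.05. Most of this sum was Slc1a2, with a mean of 1346 of 1678 CPM in WT and 948 of 1243 CPM in cKO IPs. Of the other cell type markers, 2 were called in the IPs, the interneuron gene Gad2 (-0.91 ± 0.15, FDR = 0.0618) and the meningeal gene Ptgds (1.36 ± 0.26, FDR = 0.0705), both named after their values were seen. Sums in WT and cKO IPs were 4046 to 4181 and 4479 to 4704 CPM for granule cell markers. They were 705 to 930 and 629 to 651 CPM for CA pyramidal and 168 to 193 and 119 to 133 CPM for interneuron markers. The microglia, endothelial, pericyte and meningeal, and choroid plexus sums overlapped. Their part in the Pdgfra value was not tested. Nkx6-2, Cldn11, Opalin and Ppp1r14a were too low in the IPs to be tested, and with all 15 libraries in one fit Cldn11 was called higher in the cKO IPs.

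**Figure D4:**
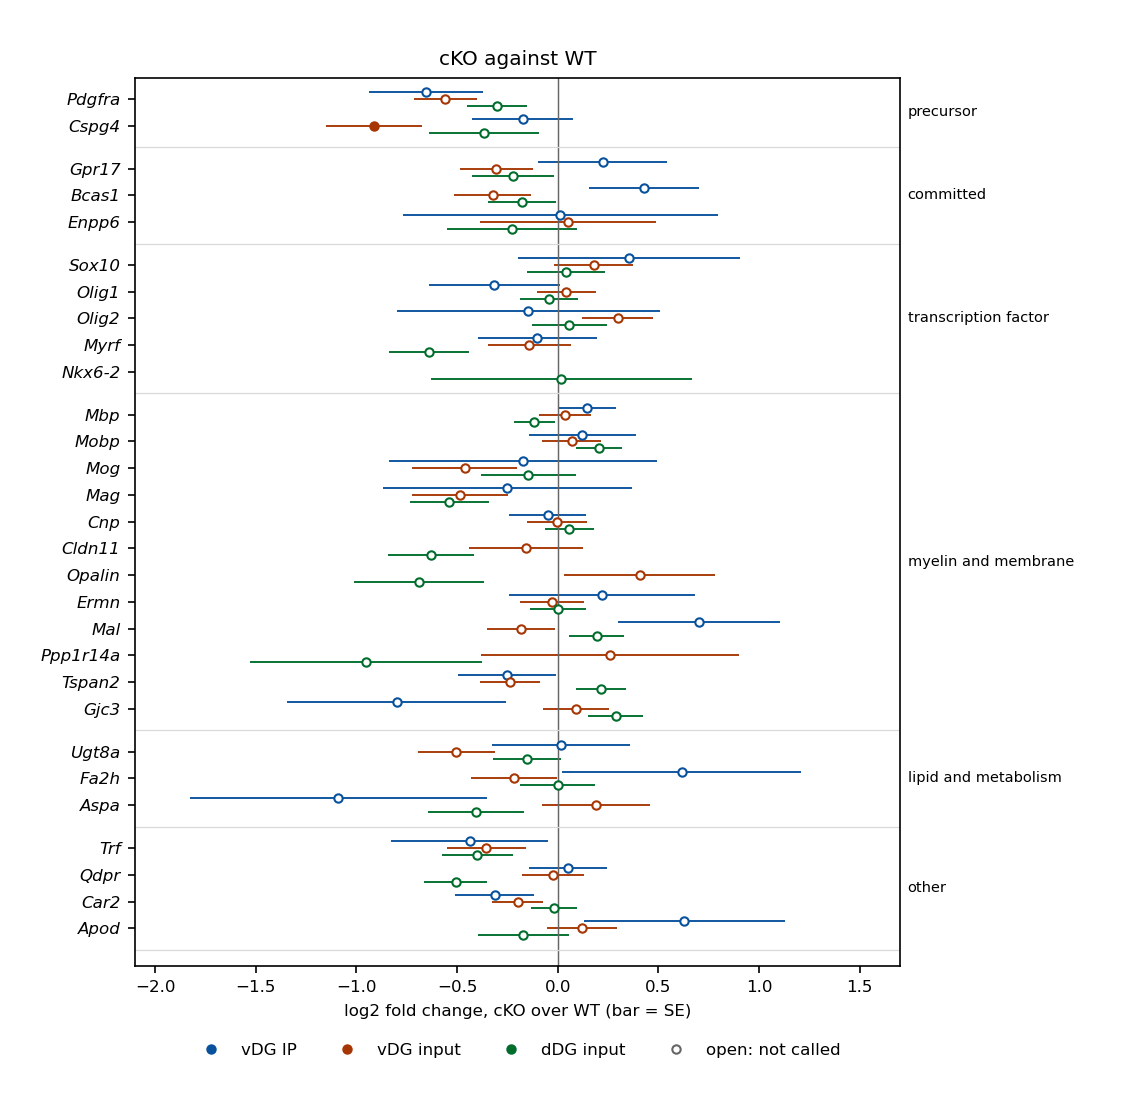
Log2 fold change of cKO over WT for each tested gene in the vDG IP, vDG input and dDG input, with the SE as a bar and a filled point for the single call. Cspg4 in the vDG input is the filled point, at -0.91, and the points of all other genes are open.

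**Figure D5:**
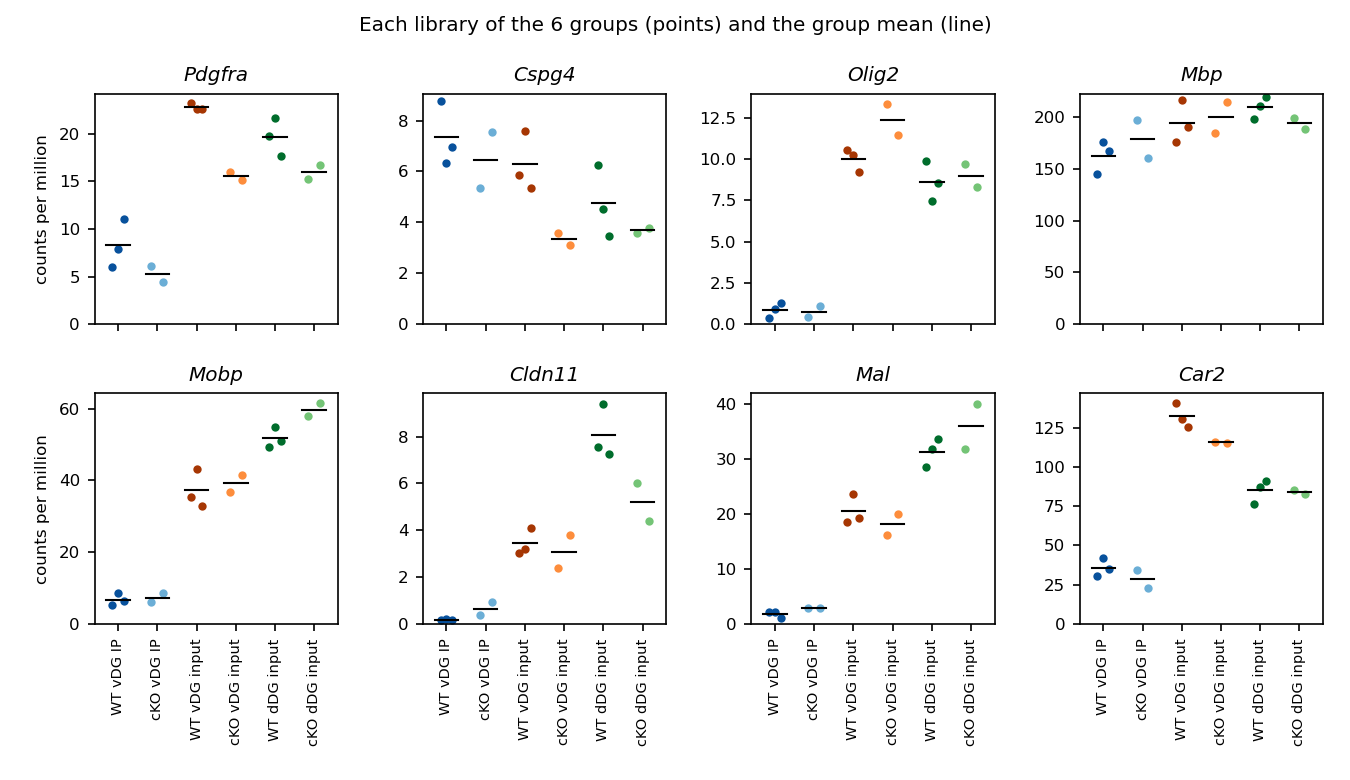
Level in CPM of 8 of the genes in each library (points) and the group mean (line), from an axis that starts at 0. The cKO points of Cspg4 and Pdgfra lie below the WT points in the vDG inputs, where Cspg4 was called and Pdgfra was not. The dDG points of Mobp, Cldn11 and Mal lie above the vDG input points of the same genotype, each called except Cldn11 in cKO, and those of Car2 lie below.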

How the data were processed

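The deposited values were raw gene counts, 1 table per library. Per the labels and the study's methods, the authors amplified 15 ng of RNA with the Ovation kit, made unstranded TruSeq libraries, sequenced them paired-end, trimmed reads with Trim Galore, aligned them to mm10 with STAR 2.4.2a, removed duplicates with SAMtools 0.1.19-444 and counted genes with HTSeq in union mode at its defaults. No molecular identifiers were used. The default counts by strand and these kits do not keep it, but 11.3% to 18.7% of the reads fell in no gene, fewer than counting such libraries by strand would leave, so the setting used is not settled. Reads of a gene and of one overlapping it on the opposite strand cannot be told apart. Of the authors' comparison tables, which hold their fold changes and p-values, none was used. Rows naming no gene, 24.7% to 37.8% of the reads, were left out.

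Each pair of groups was fitted with edgeR 4.0.16 (R 4.3.3), using TMM factors, its default count filter and the quasi-likelihood test, and p-values were adjusted by Benjamini-Hochberg over all genes tested. The 2 interactions were fitted over 4 groups. Printed CPM use TMM factors over all 15 libraries, whereas each test used factors of its own libraries. The steps were tested on simulated counts. Alternatives were DESeq2 1.42.0, its size factors, library size alone, no count filter, all libraries in one fit, the replicate number as a block and leaving out each library. Values per library were printed for 14 chosen genes and for up to 3 called members per direction with the largest change in a comparison, and up to 2 called genes with a mean of at least 1 CPM were named per wider list. A gene counted in the wider myelin list is not reported here by name. The members and lists were chosen with earlier results of these data known. Exons and transcripts came from GENCODE M21 and promoter windows from RefSeq (GRCm38.p6).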

Additional observations from a re-analysis of the deposited data

How the results depend on the processing

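Of 70 calls of members, 50 held under every alternative run for them, 20 were lost at least once and none reversed, where a depletion was also counted as lost when it was not past the 0.5-fold limit. Depleted members numbered 23 to 25 in WT and 22 to 24 in cKO, and 22 to 24 and 20 to 23 on leaving out single libraries. In vDG against dDG inputs, members called numbered 6 to 10 of 10 in WT and 6 to 11 in cKO on leaving out single libraries, with the 6 of WT being without dDG input replicate 2 and the 6 of cKO without dDG input replicate 1. In cKO they were 6 by DESeq2 and 3 with all 15 libraries in one fit. Between the genotypes' IPs 1 member, Cldn11, was called (higher in cKO) with all 15 libraries in one fit. In vDG inputs 2 were called by DESeq2, 2 with no count filter, 0 with library size alone, 0 with all 15 libraries in one fit and 0 to 1 on leaving out single libraries. In dDG inputs 2 were called with no count filter. The cause of these shifts was not tested.

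Same-numbered libraries did not all deviate together (correlations of 0.45, -0.14 and -0.29 for the WT IP and input, and of 0.39, -0.09 and 0.24 for the WT inputs of the poles), and the 2 cKO libraries of a group gave 0.35 for the IP and input and 0.14 for the poles, so the replicate numbers were taken as names. With the number as a block, members called were 23 (Enpp6 lost) in the WT and 22 in the cKO IP comparison, 11 and 15 (in cKO with Sox10 and Olig2 higher in the vDG) between the poles, 0 between IPs, 1 between vDG inputs, 0 between dDG inputs and 0 in both interactions.

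Over all genes, calls between IPs went from 60 to 353 by DESeq2, 115 with library size alone, 379 with no filter, 470 with all libraries and 0 at an FDR under 0.05. Those between vDG inputs went from 385 to 626, 660 and 140 by DESeq2, with no filter and with all libraries, and those between dDG inputs from 5 to 188, 378 and 0, with 137 under the block. Calls between the poles in cKO went from 2642 to 1360 with all libraries. The region interaction went from 0 to 256 by DESeq2, 362 with no filter and 11 under the block, and the fraction interaction from 0 to 12 with no filter. On leaving out single libraries the calls over all genes ran from 0 to 184 between IPs, 6 to 638 between vDG inputs, 0 to 130 between dDG inputs and 0 to 48 in the region interaction. Depleted genes in cKO fell from 1624 to 835 and 848 without vDG input replicate 1 and 2, each of which left 1 input library and took the spread from the IPs, and calls between the poles in cKO to 1428 without dDG input replicate 2. Depth limits Enpp6, Nkx6-2, Ppp1r14a, Opalin and Cldn11 in the IPs, where single libraries held 0 to 22 counts.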
